A study of Mus musculus with 90 samples.

Results

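The mast cell and basophil genes described here were 8 genes, Fcer1a, Ms4a2, Ms4a3, Gzmb, Cpa3, Hdc, Mcpt8 and Prss34, out of 35869 gene rows in the table. They were chosen by symbol, and all 8 symbols were found. They were followed cell by cell to ask whether megakaryocyte-like (MK) cells carried them together with Pf4, the platelet factor stored in megakaryocyte granules. Only 3 of the 8, Ms4a3, Gzmb and Cpa3, reached 10 TPM (transcripts scaled to a common total per library) in any of the 33 libraries. Fcer1a, Ms4a2, Hdc, Mcpt8 and Prss34, grouped here after their values were seen, were at 2.3 TPM or below in every library. Cpa3, a mast cell protease, was not in that group. It reached 136.2 TPM in KO NMK 5B and was above 0 in all 6 WT MK cells. The name of the set was thus not borne out by most of its genes, and the text below refers to the genes by symbol.

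Each library was made from 1 cell. The study sorted CD41-positive haematopoietic stem cells from mouse bone marrow, kept them in culture for 2 days, and picked MK-like and non-MK-like (NMK) cells. All mice carried floxed Runx1 alleles (RUNX1f/f) and all received 4 injections of poly(I:C), an inducer of interferon, 4 weeks before the sort. The knockout (KO) mice also carried 1 copy of a Cre transgene (MxCre1+/-,RUNX1f/f), and the wild-type (WT) mice carried none (MxCre1-/-,RUNX1f/f). Cre driven by the interferon-responsive Mx1 promoter acts in many cell types besides stem cells. The groups were KO MK with 5 cells, WT MK with 6, KO NMK with 13 and WT NMK with 9. The age of the mice and the number of mice are not given in the labels.

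Mast cells and basophils are granulocytes that bind immunoglobulin E through a surface receptor. The receptor has an alpha chain that holds IgE (Fcer1a), a beta chain that amplifies the signal (Ms4a2) and a gamma chain (Fcer1g) that signals inside the cell and also serves other receptors, among them the platelet collagen receptor. When IgE is cross-linked, the cells release histamine, made by Hdc, and granule proteases. Carboxypeptidase A3 (Cpa3) is a mast cell protease, Mcpt8 and Prss34 are proteases of mouse basophils, and granzyme B (Gzmb) is best known from cytotoxic lymphocytes. Ms4a3 is a relative of the receptor's beta chain, best known from granulocyte and monocyte progenitors. Mast cells, basophils and megakaryocytes share the transcription factor GATA2, and RUNX1 is best known for its part in forming stem cells and megakaryocytes.

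No label names an animal or culture for any cell, which makes every group a single sample, and the differences were not tested. Differences are given as the difference in mean log2(TPM + 1), beside the pooled SD between cells, and a gene was counted as higher or lower at 1 log2 unit or more. Genes entered a comparison if either group averaged at least 1 TPM. TPM holds no information on depth. MK libraries held more genes above 0, with 11896 to 14487 in KO MK, 14089 to 15252 in WT MK, 3011 to 10987 in KO NMK and 5475 to 11715 in WT NMK. The part that this played in the results was not tested. A score of 14 housekeeping genes was under 6 in 2 of the 33 libraries, both KO NMK.

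A few libraries stood apart. The libraries labelled KO MK 2 and KO MK B1-4 (the names after the group are the replicate names of the titles) had 213.7 and 65.8 TPM of Pf4, while the other 3 KO MK cells held 13751.7 to 26884.7 TPM and WT MK cells held 12512.8 to 19618.6 TPM. Those low values lie in the range of the NMK cells, which reached 841.3 TPM in KO and 1453.1 TPM in WT. The megakaryocyte-platelet list of 20 genes summed to 411.6 TPM in the lowest KO MK cell. Results on KO MK are therefore also given without these 2 libraries. Among WT MK, the 5 libraries without a prefix in their titles correlated with each other at r of 0.961 to 0.973 (log2(TPM + 1), 10 pairs), while the other 518 pairs of libraries reached at most 0.928. Whether these 5 hold separate cells could not be checked without counts, so they are also given averaged into 1. The level of Runx1 over the whole gene, 8.9 to 47.5 TPM in KO MK and 7.6 to 22.2 TPM in WT MK, does not check a deletion of part of the gene.

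**Figure D1:**
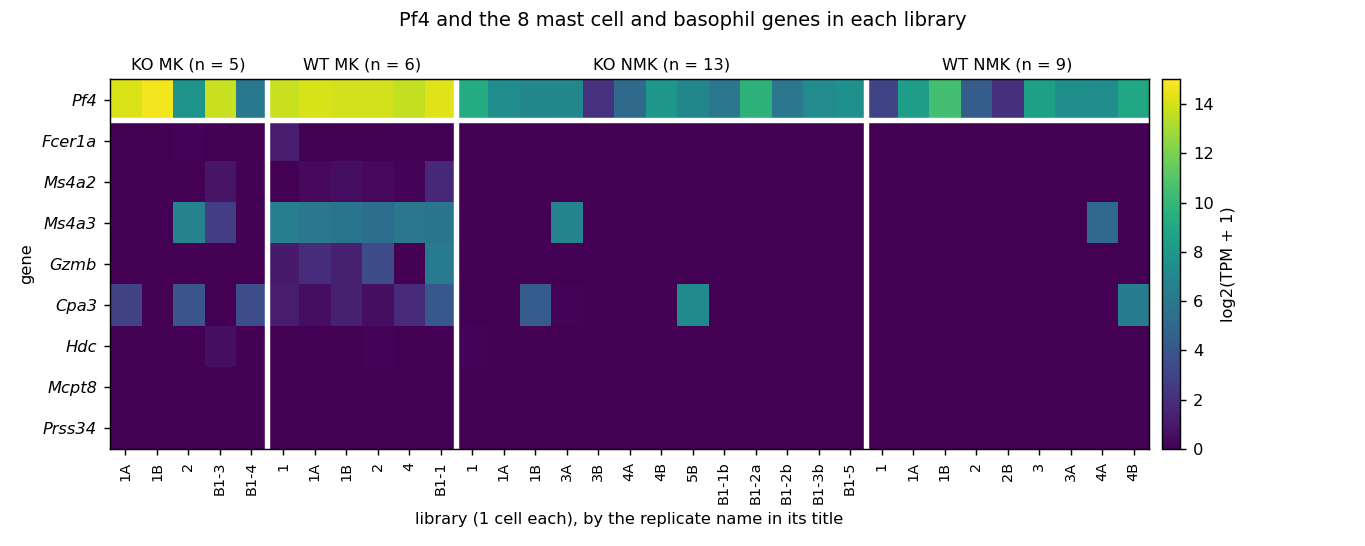
Level of Pf4 (top row) and of the 8 genes in each of the 33 libraries, as log2(TPM + 1) on the colour scale, with the groups from left to right in the order KO MK, WT MK, KO NMK and WT NMK. Ms4a3 is filled in all 6 WT MK cells, while Mcpt8 and Prss34 are at 0 throughout.

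The 3 genes with appreciable levels lie on 3 chromosomes. In GRCm38, with GENCODE M21, Ms4a3 spans chr19:11629496-11640851 on the minus strand, and Ms4a2 lies 5776 bases away at chr19:11615523-11623719 on the same strand. Gzmb lies at chr14:56258838-56262260, at 1 end of a protease cluster that also holds Mcpt8. Cpa3 lies at chr3:20215620-20242181. The windows below run from 250 bases before to 50 after the start site (RefSeq, GRCm38.p6), 5′ to 3′ on the minus strand. They are shown because Ms4a3 and Gzmb were lower in KO MK than in WT MK, Cpa3 was not, and Ms4a2 is the almost unexpressed neighbour of Ms4a3. Capitals mark matches to the RUNX motif TGTGGT and to 4 forms of the GATA motif on either strand, namely AGATAA or AGATAG, and also TGATAA or else TGATAG.

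Ms4a3, chr19:11640802-11641101: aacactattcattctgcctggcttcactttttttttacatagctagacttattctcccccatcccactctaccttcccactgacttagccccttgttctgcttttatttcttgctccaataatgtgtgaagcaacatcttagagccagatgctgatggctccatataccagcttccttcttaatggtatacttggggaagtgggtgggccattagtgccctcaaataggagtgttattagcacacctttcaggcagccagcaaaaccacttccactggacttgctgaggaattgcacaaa
Ms4a2, chr19:11623670-11623969: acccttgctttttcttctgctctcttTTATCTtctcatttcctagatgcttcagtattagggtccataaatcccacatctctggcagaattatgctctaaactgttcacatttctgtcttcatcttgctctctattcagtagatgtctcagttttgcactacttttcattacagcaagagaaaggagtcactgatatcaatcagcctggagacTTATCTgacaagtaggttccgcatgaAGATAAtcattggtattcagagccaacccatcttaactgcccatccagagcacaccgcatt
Gzmb, chr14:56262285-56262584: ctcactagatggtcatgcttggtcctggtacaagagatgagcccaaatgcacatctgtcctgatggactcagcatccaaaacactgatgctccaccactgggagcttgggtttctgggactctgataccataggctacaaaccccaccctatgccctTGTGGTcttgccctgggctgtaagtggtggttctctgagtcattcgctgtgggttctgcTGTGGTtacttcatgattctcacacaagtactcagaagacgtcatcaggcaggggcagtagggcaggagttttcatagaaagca
Cpa3, chr3:20242132-20242431: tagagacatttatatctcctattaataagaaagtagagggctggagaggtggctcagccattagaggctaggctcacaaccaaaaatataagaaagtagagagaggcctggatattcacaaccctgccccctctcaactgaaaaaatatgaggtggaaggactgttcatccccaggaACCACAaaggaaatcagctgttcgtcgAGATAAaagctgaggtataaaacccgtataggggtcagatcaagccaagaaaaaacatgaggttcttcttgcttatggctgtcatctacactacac

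The Ms4a3 window held no match to either motif. The Gzmb window held 2 RUNX matches and no GATA match, the Cpa3 window 1 of each, and the Ms4a2 window 3 GATA matches and no RUNX match. Of all 32851 windows of this length, 16.8% held a RUNX match and 29.8% a GATA match, 1.81% held 2 or more RUNX matches and 1.76% held 3 or more GATA matches. Over all 8 genes, 4 windows held a RUNX match and 5 a GATA match. The window of Mcpt8, a gene listed at 0 in all 33 libraries, also held 2 RUNX matches. An E-box, CANNTG, was present in 7 of the 8 windows and in 72.3% of all windows. Between the RefSeq and GENCODE annotations, the start site differs by 74 bases for Gzmb, 76 for Mcpt8, 621 for Hdc and 15 for Fcer1a. The GENCODE start site of Hdc lies outside its window. A match is a description of the letters in these windows and not a measured binding site.

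The chains of the IgE receptor differed widely in level. Fcer1a, the chain that binds IgE, was at 0.1 TPM in KO MK 2 and 1.2 TPM in WT MK 1, and was listed at 0 in the other 31 libraries. Ms4a2, the beta chain, was at 0.7 TPM in KO MK B1-3, against at most 2.3 TPM in WT MK, where 5 of 6 cells were above 0. It was listed at 0 in all NMK cells. Fcer1g, the gamma chain that the receptor shares with the platelet collagen receptor, was abundant in both MK groups. It ranged from 1692.3 to 4214.6 TPM in KO MK (median 2898) and from 107.8 to 4745.7 TPM in WT MK (median 3024.95). In NMK cells it reached 1054.3 TPM in KO (median 123.8) and 329.2 TPM in WT (median 0). MK cells thus held the shared chain with almost none of the 2 chains that mast cells and basophils add to it.

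The markers of histamine synthesis and of basophil granules were close to absent. Hdc, which makes histamine from histidine, was highest at 0.5 TPM in KO MK B1-3, and stood at 0.1 TPM in WT MK 2 and KO NMK 1. The basophil proteases Mcpt8 and Prss34 were listed at 0 in all 33 libraries. Depth is unknown, so no limit on their levels can be drawn from these zeros. In the 13 libraries that the authors left out of this table, the highest values were 0.5 TPM for Mcpt8, 0.6 TPM for Prss34 and 0.1 TPM for Hdc.

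Ms4a3 was present in every WT MK cell. Its values were 56.7 TPM in WT MK B1-1, 82.9 in WT MK 1, 41.3 in WT MK 2, 59.6 in WT MK 4, 64.3 in WT MK 1A and 54.8 in WT MK 1B. In WT NMK it was 33.8 TPM in 4A and listed at 0 in the other 8 cells. The 2 groups did not overlap, which held for 4.58% of the 11562 genes compared (all MK cells above all NMK cells). The mean in WT MK was 59.9 ± 13.6 TPM (SD between cells, n = 6), and the difference in mean log2(TPM + 1) to WT NMK was 5.33, with a pooled SD of 1.35. Of the 11562 genes, 24 had a larger difference upwards. The value was 5.33 with the 5 alike libraries averaged into 1, and 5.34 in the libraries without a title prefix alone.

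KO MK cells did not share this pattern. Ms4a3 was 104.9 TPM in KO MK 2, 5.6 in KO MK B1-3 and 0 in KO MK 1A, 1B and B1-4. The highest value thus came from a cell with 213.7 TPM of Pf4. The 3 KO MK cells rich in Pf4 held 0, 0 and 5.6 TPM, all below the lowest WT MK cell at 41.3 TPM. Against WT MK, the difference in mean log2(TPM + 1) was -4.01 (pooled SD 1.98) with all 5 KO MK cells, and the groups overlapped through KO MK 2. Without the 2 libraries low in Pf4 it was -4.99 (pooled SD 0.88), with no overlap, a pattern found downwards in 5.25% of the 11345 genes of that comparison. Of 11796 genes, 10 lay lower than Ms4a3 with all cells included. Within title prefixes the difference was -3.67 for libraries with none and -4.49 for those with B1, where WT MK had 1 cell.

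In the NMK groups Ms4a3 was found in single cells. It was 106.6 TPM in KO NMK 3A, against 33.8 TPM in WT NMK 4A, and it was listed at 0 in the other 12 KO NMK and 8 WT NMK cells. The difference between KO NMK and WT NMK was -0.05 on the log2(TPM + 1) scale, with a pooled SD of 1.81. It turned to 0.52 without WT NMK 4A and was -0.57 without KO NMK 3A. Between KO MK and KO NMK the difference was 1.37 (pooled SD 2.19). It was 0.16 without KO MK 2, and 0.39 without both KO MK libraries low in Pf4.

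Since Ms4a3 is known from granulocyte and monocyte progenitors, other genes of that lineage were set beside it. Mpo and Elane, proteins of the primary granules of neutrophils, were at 0.4 TPM or below in every library. Prtn3, another protease of those granules, was present, at 0 to 91.2 TPM in KO MK, 2.8 to 11.7 TPM in WT MK, 0 to 54.9 TPM in KO NMK and 0 to 114.7 TPM in WT NMK. Of the 3 cells highest in Ms4a3 outside WT MK, KO MK 2 had 62.1 TPM of Prtn3, KO NMK 3A had 0 and WT NMK 4A had 114.7 TPM, while KO MK B1-4, with no Ms4a3, had 91.2 TPM. The granulocyte-monocyte list of 14 genes summed to 274.2 to 2226.8 TPM in KO MK, 109.6 to 285.5 TPM in WT MK, 3 to 1330.9 TPM in KO NMK and 11.3 to 1569.8 TPM in WT NMK. These sums rested mainly on 1 gene of the list, Lyz2. It averaged 862.4 TPM in KO MK, 188.2 TPM in WT MK, 479.7 TPM in KO NMK and 796.3 TPM in WT NMK. The highest cell of the list was KO MK 2 at 2226.8 TPM, which also had the highest Ms4a3 of the MK cells. The WT MK cells, all with Ms4a3, lay below the median of the list in KO MK (738.7 TPM), KO NMK (533.2 TPM) and WT NMK (950.1 TPM). The part of this lineage's genes in the Ms4a3 result was not tested.

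Gzmb was found in WT MK cells and nowhere else in this table. It was 73.8 TPM in WT MK B1-1, 9.6 in WT MK 2, 2.8 in WT MK 1A, 1.6 in WT MK 1B, 1.1 in WT MK 1 and 0 in WT MK 4. It was listed at 0 in all 5 KO MK, 13 KO NMK and 9 WT NMK cells, and in the 13 libraries left out. The WT MK level thus rested mainly on 1 cell. The difference in mean log2(TPM + 1) was 2.33 for WT MK minus WT NMK (pooled SD 1.37) and -2.33 for KO MK minus WT MK (pooled SD 1.65). Both carry the same WT MK values, and no fold is given against groups listed at 0. Without WT MK B1-1 the sizes were 1.56 and -1.56, and with the 5 alike libraries averaged they were 4.12 and -4.12.

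Markers of cytotoxic lymphocytes were mostly at or near 0, and Nkg7, the exception, did not track Gzmb. Prf1, the pore-forming protein that delivers granzymes, and Gzma were listed at 0 in all MK cells. The list of 13 genes summed to 0 to 1173.6 TPM in KO MK, 15.2 to 40.2 TPM in WT MK, 0 to 103.7 TPM in KO NMK and 0 to 280.1 TPM in WT NMK. In no cell did more than 1 of the 13 genes reach 1 TPM. Nkg7, a granule membrane protein, was the only one to average at least 1 TPM in any group. It was 0 to 1173.4 TPM in KO MK, with the highest value in KO MK 2, 15.2 to 39.7 TPM in WT MK, 0 to 103.5 TPM in KO NMK and 0 to 279.7 TPM in WT NMK. WT MK 4, where Gzmb was 0, had 20.4 TPM of Nkg7. The eosinophil list of 8 genes summed to at most 13.7 TPM in KO MK, 0.9 TPM in WT MK, 11.3 TPM in KO NMK and 0.3 TPM in WT NMK.

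Neighbours of Gzmb in the protease cluster on chromosome 14 were found at low levels in WT MK cells, though not always beside Gzmb. The cluster holds 15 genes in chr14:55941451-56262260, from Cma1 to Gzmb, and was looked at after the values were seen. Without Gzmb, the summed level of the other 14 was 0 to 0.1 TPM in KO MK, 0 to 28.7 TPM in WT MK, 0 to 0.1 TPM in KO NMK and 0 to 1 TPM in WT NMK. At least 1 of the 14 reached 1 TPM in 5 of 6 WT MK cells and in WT NMK 2B, and none did in any KO cell of the 33 libraries. In KO MK B1-1, a library that the authors left out, Gzmg was at 2.1 TPM and Ctsg at 1.3 TPM. WT MK 1A had Gzmb at 2.8 TPM with all 14 at 0, and WT MK 4 had Mcpt1 at 4 TPM with Gzmb at 0. In WT MK B1-1, Gzmc, another granzyme, was at 18.9 TPM, Mcpt2 at 6.2 TPM and Mcpt1 at 2.4 TPM. Mcpt1 and Mcpt2 encode proteases of mucosal mast cells. Mcpt4 and Mcpt9 were listed at 0 in every cell of the 33 libraries, while Mcpt9 was at 0.7 TPM in KO MK B1-1a, which was left out. Genes of this cluster are related in sequence, so reads may be shared between some of them. The way the authors counted such reads is not given in the sources used here.

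Cpa3 was scattered over all 4 groups. It was 14.5 TPM in KO MK 2, 10.9 in KO MK B1-4, 6.5 in KO MK 1A and 0 in KO MK 1B and B1-3. In WT MK it was above 0 in all 6 cells, with 16.5 TPM in B1-1 and 0.5 to 2.5 TPM in the other 5. The highest levels of the table were in NMK cells. Cpa3 was 136.2 TPM in KO NMK 5B and 18.9 TPM in KO NMK 1B, against 76.7 TPM in WT NMK 4B. KO NMK 3A had 0.1 TPM, and the other NMK cells were listed at 0.

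The difference in Cpa3 depended on the scale. In mean log2(TPM + 1) it was 1.20 for KO MK minus KO NMK (pooled SD 2.15) and 0.90 for WT MK minus WT NMK (pooled SD 1.84). As the log2 ratio of mean TPM it was -0.90 for KO MK over KO NMK and -1.17 for WT MK over WT NMK, where the NMK means rested on KO NMK 5B, KO NMK 1B and WT NMK 4B. The KO value of 1.20 was 0.73 without KO MK 2, 0.83 without KO MK B1-4, 0.99 without KO MK 1A, 1.72 without either of the other 2 KO MK cells and 1.72 without KO NMK 5B. The WT value of 0.90 was 0.39 without WT MK B1-1 and 1.59 without WT NMK 4B. Between KO and WT the differences were 0.49 in MK cells (pooled SD 1.63) and 0.19 in NMK cells (pooled SD 2.17). Without the 2 libraries low in Pf4, the difference was 0.08 for KO MK minus KO NMK and -0.63 for KO MK minus WT MK.

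A predicted gene, Gm31320, lies inside Cpa3 at chr3:20222277-20229475 (RefSeq, GRCm38.p6). Its level moved with that of Cpa3, at r of 0.95 over the 33 libraries. Gm31320 was 90.9 TPM in KO MK 2 and 34.8 TPM in KO MK B1-4, and it was 135.7 TPM in KO NMK 1B and 59.7 TPM in KO NMK 5B, against 218.8 TPM in WT NMK 4B. The setting for strand is not given in the sources used here, so reads of Cpa3 and of a gene within it cannot be told apart, and the level of Cpa3 is uncertain.

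**Figure D2:**
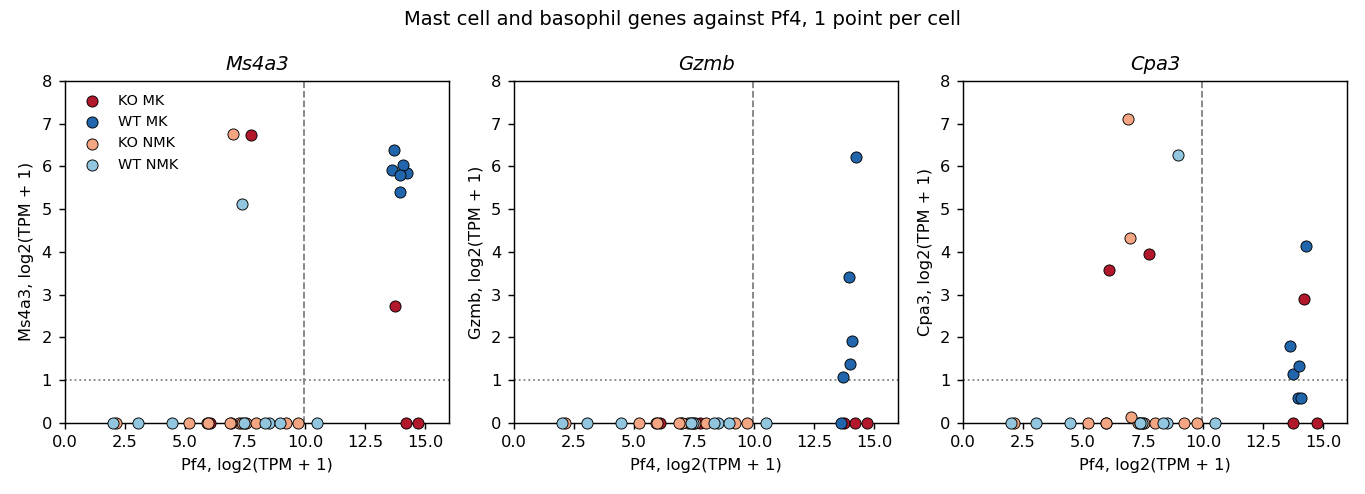
Ms4a3, Gzmb and Cpa3 (vertical axes) against Pf4 (horizontal axis) in the 33 cells, all as log2(TPM + 1), with the dashed line at 1000 TPM of Pf4 and the dotted line at 1 TPM of the gene. The 6 WT MK cells lie together at high Pf4 with 41.3 to 82.9 TPM of Ms4a3, while the high Cpa3 values lie left of the dashed line.

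Cells with 1000 TPM or more of Pf4 and 1 TPM or more of any of the 8 genes were counted as carrying both. Of KO MK cells, 2 of 5 did so (40%, exact 95% interval 5.27 to 85.3%), B1-3 through Ms4a3 and 1A through Cpa3. Only 3 of the 5 had that much Pf4, so without the 2 libraries low in Pf4 it was 2 of 3. Of WT MK cells, 6 of 6 did so (100%, exact 95% interval 54.1 to 100%). No NMK cell did, with 0 of 13 in KO (interval up to 24.7%) and 0 of 9 in WT (interval up to 33.6%), but only 1 NMK cell, WT NMK 1B, had that much Pf4. These zeros depend on the threshold. At 100 TPM of Pf4 the counts were 3 of 5 KO MK, 6 of 6 WT MK, 3 of 13 KO NMK and 2 of 9 WT NMK cells. The Clopper-Pearson intervals cover counting error only and take the cells as independent, which no label shows. Whether 5 of the 6 WT MK libraries hold separate cells could not be checked. By gene, the WT MK count was 6 for Ms4a3, 5 for Gzmb, 4 for Cpa3 and 1 each for Fcer1a and Ms4a2. All 6 WT MK cells carried 2 or more of the 8 genes, and 3 carried 3 or more. KO MK 2 was the only KO MK cell with 2, and no NMK cell had more than 1.

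At 10 TPM of a gene instead of 1, the count was 0 of 5 KO MK and 6 of 6 WT MK cells. In KO MK without the 2 libraries low in Pf4 it was 0 of 3. The WT count came from Ms4a3 in every cell. Detection in every WT MK cell was common among expressed genes. Of 10221 genes that averaged at least 1 TPM in WT MK, 74.7% were at 1 TPM or more in all 6 cells. Cells that carried a gene without 1000 TPM of Pf4 were 2 KO MK, 3 KO NMK and 2 WT NMK cells.

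Within the cells rich in Pf4, the level of Pf4 followed none of the 3 genes closely. Over the 10 cells with 1000 TPM or more, Pearson's r with Pf4 was 0.31 for Ms4a3, 0.33 for Cpa3 and 0.27 for Gzmb (Spearman's rho -0.19, 0.24 and 0.30). Over the 23 cells below 1000 TPM it was 0.13 for Ms4a3 and 0.19 for Cpa3, with most values at 0. The points share the scaling to a common total and, for WT MK, possibly a source. The pairs of genes were found together mainly in WT MK. Ms4a3 and Cpa3 were both at 1 TPM or more in 1 KO MK and 4 WT MK cells, and Ms4a3 and Gzmb in 5 WT MK cells. No NMK cell held any 2 of the 3.

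**Figure D3:**
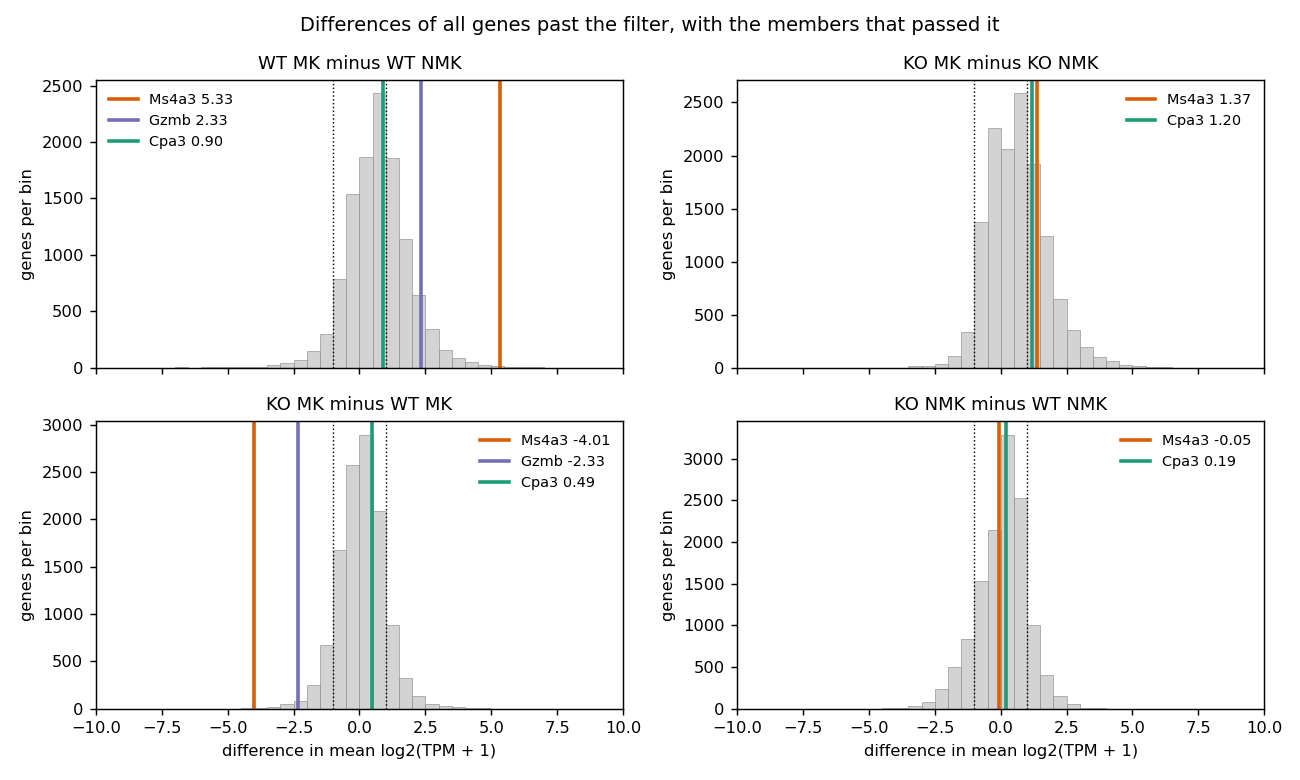
Number of genes by difference in mean log2(TPM + 1), in bins of 0.5, for each of the 4 comparisons, with coloured lines at Ms4a3, Gzmb and Cpa3 where they passed the filter and dotted lines at -1 and 1. Ms4a3 stands at 5.33 in WT MK minus WT NMK and at -4.01 in KO MK minus WT MK, and near 0 in KO NMK minus WT NMK.

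Counted over the set, few of the 8 genes could be compared at all. For WT MK against WT NMK, 3 of the 8 passed the filter, 2 were higher (Ms4a3 and Gzmb) and none was lower, where 37.4% of all 11562 genes were higher and 5.22% lower. For KO MK against KO NMK, 2 passed and both were higher (Ms4a3 and Cpa3), where 34.2% of 13365 genes were higher and 3.84% lower. Neither was higher once the 2 KO MK libraries low in Pf4 were left out. For KO MK against WT MK, 3 passed and 2 were lower (Ms4a3 and Gzmb), where 12.4% of 11796 genes were higher and 9.27% lower. For KO NMK against WT NMK, 2 passed and neither was called, where 12.8% of 12835 genes were higher and 13.3% lower. The median gene differed by 0.70, 0.59, 0.09 and 0.20 in these 4 comparisons. Rescaling by median ratios moved it to 0.24 for KO MK against WT MK, with 15.9% of genes higher and 7.22% lower and Ms4a3 at -3.85. The median of the members that passed was 2.33, 1.28, -2.33 and 0.07. The comparisons share cells, so they are not separate lines of evidence.

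Genes of the IgE receptor's signalling chain, which platelets and other blood cells also use, were often higher in MK cells. Of 13 genes, 12 passed the filter in KO and 11 in WT, 7 were higher in MK cells in KO (34.2% of all genes were), and 9 in WT (37.4% of all genes were). None was lower in MK cells in KO and 1 was in WT. Lat, an adaptor that links the receptor to calcium signalling, ranged from 9.8 to 394.2 TPM in KO MK (median 367.1), against a median of 0 TPM in KO NMK, and from 68.9 to 131.1 TPM in WT MK, against a median of 19.7 TPM in WT NMK. Lcp2, the adaptor SLP-76, was higher in KO MK than in WT MK, at 301.2 ± 112.7 TPM (SD, n = 5) against 68.7 ± 13.8 TPM (SD, n = 6), a difference of 2.02 in mean log2(TPM + 1), and of 2.35 without the 2 KO MK cells low in Pf4. In that comparison 4 of 12 genes of the list were higher and none was lower, where 12.4% of all genes were higher. The median difference of the list was 1.47 in KO, 1.59 in WT, and 0.73 for KO MK against WT MK. Lat was 9.8 and 26.9 TPM in the 2 KO MK cells low in Pf4. Without them, 8 of 12 genes were higher and 1 lower in KO MK against KO NMK, where 38.8% of 13206 genes were higher and 6.26% lower. In KO MK against WT MK it was then 5 of 11 higher and none lower, where 16.1% of 11345 genes were higher and 9.58% lower.

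Granule genes split into shared and restricted ones. Of 14 genes, 4 passed the filter in KO MK against KO NMK, of which 3 were higher (34.2% of all genes were), and 5 in WT MK against WT NMK, of which 2 were higher, near the 37.4% of all genes. Cd63, a granule membrane protein that many blood cells use, was the most abundant, at 1636 ± 688 TPM in KO MK (SD, n = 5) and 1552 ± 439 TPM in WT MK (SD, n = 6). Slc18a2, the transporter that loads amines into granules of mast cells and platelets, ranged from 0.9 to 77.5 TPM in KO MK (median 20.4) and from 24.7 to 561.7 TPM in WT MK (median 32.05). Its medians were 0.5 TPM in KO NMK and 0.7 TPM in WT NMK. The count of 3 of 4 higher in KO was the same without the KO MK cells low in Pf4, where 38.8% of all genes were higher. The tryptase genes Tpsb2, Tpsab1 and Tpsg1 of mast cells were at 0.1 TPM or below in every cell, and Tph1, which makes serotonin in mast cells, was at 0. Not every mast cell protease was that low. Mcpt1 was at 1 TPM or more in 4 of 6 WT MK cells, with a mean log2(TPM + 1) of 1.12, against 0 in WT NMK. Mcpt2 reached 1 TPM in 3 of 6 WT MK cells, with means of 0.94 and 0.08, and Cma1 was 2.3 TPM in WT MK 2. Mcpt1, Mcpt2 and Cma1 were listed at 0 in KO MK, and Mcpt4 and Mcpt9 in every cell. Tpsb2, Tpsab1, Tpsg1 and Tph1 are named as defining genes of mast cell granules after their values were seen.

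Receptors of mast cells and basophils did not move as a block between MK and NMK cells. Of 15 genes, 8 passed in KO, with 5 higher and 1 lower in MK cells (34.2% and 3.84% of all genes), and 6 passed in WT, with 1 higher and 3 lower in MK cells (37.4% and 5.22% of all genes). Without the KO MK cells low in Pf4, 7 passed in KO, with 4 higher and 2 lower (38.8% and 6.26% of all genes). For KO MK against WT MK, 8 passed, with 4 higher and none lower (12.4% and 9.27% of all genes). Without the KO MK cells low in Pf4, 7 passed in that comparison, with 4 higher and 1 lower (16.1% and 9.58% of all genes). Kit, the stem cell factor receptor that mast cells keep for life, was 54 and 21 TPM in the KO MK cells B1-4 and 2, both low in Pf4, and 0 in the other 3, against 0 to 63.9 TPM in KO NMK (median 16.6). In WT it ranged from 0.6 to 4.3 TPM in MK (median 1.95), against 0 to 47.9 TPM in NMK (median 18.8). Cd200r1, an inhibitory receptor of mast cells and myeloid cells, was 41.6 to 476.1 TPM in KO MK and 0.2 to 13.1 TPM in WT MK. These 2 groups did not overlap, a pattern found upwards in 2.38% of 11796 genes. Its medians were 161.2 TPM in KO MK, 6.3 TPM in WT MK, 0.2 TPM in KO NMK and 91.5 TPM in WT NMK. Ptger3, of the same list, averaged 48.45 TPM in WT MK, 12.3 in WT NMK, 46.7 in KO MK and 25.3 in KO NMK. For WT MK minus WT NMK it differed by 3.08 log2 units (pooled SD 1.73). For KO MK minus KO NMK the difference was 2.08 (pooled SD 2.22). Csf2rb averaged 26.5 TPM in KO MK, 5.4 in WT MK, 5.6 in KO NMK and 5.2 in WT NMK. It differed by 2.87 for KO MK minus KO NMK (pooled SD 1.75) and by 2.13 against WT MK (pooled SD 1.35). Il1rl1, the receptor for interleukin 33 on mast cells and basophils, and Mrgprb2, a mast cell receptor of mice, were at 0.1 TPM or below in every cell, and were named after their values were seen.

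Among transcription factors, Gata1, which megakaryocytes and mast cells share, was 0 and 5.7 TPM in the KO MK cells B1-4 and 2, while the 3 KO MK cells rich in Pf4 held 152 to 302.1 TPM. It was 11.2 to 41 TPM in WT MK, and was at 0.5 TPM or below in all NMK cells. Gata2, needed for mast cells and for stem cells, had medians of 9.5 TPM in KO MK, 16.95 TPM in WT MK, 35.4 TPM in KO NMK and 8.9 TPM in WT NMK. It differed by -1.21 log2 units for KO MK minus KO NMK and by 1.37 for WT MK minus WT NMK. The difference between these contrasts was not tested. For KO MK minus WT MK it was -0.80, and -1.36 without the 2 KO MK cells low in Pf4. Mitf, a factor that mast cells require, was at 0.1 TPM or below in every cell, and was named after its values were seen. Of 12 genes, 8 passed in KO, with 2 higher and 2 lower in MK cells, and 8 in WT, with 3 higher and 2 lower. Without the KO MK cells low in Pf4, 8 passed in KO, with 3 higher and 3 lower. The counts of higher genes lie near the shares of all genes, which were 34.2% in KO, 37.4% in WT and 38.8% in KO without those cells, beside 3.84%, 5.22% and 6.26% lower.

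Enzymes of lipid mediators were found in MK and in NMK cells. The cytokines Il4 and Il13 were near 0 in most cells, while Ccl4 and Osm, of the same list, averaged more than 10 TPM in at least 1 group. Alox5, which starts leukotriene synthesis, was 11.8 to 254.2 TPM in KO MK and 68.1 to 379 TPM in WT MK. In NMK cells it was at most 0.1 TPM in KO and 129.3 TPM in WT, where the median was 0. Hpgds, the prostaglandin D2 synthase of mast cells, was 38.8 to 91.8 TPM in KO MK and 1.6 to 17.1 TPM in WT MK. These 2 groups did not overlap, a pattern found upwards in 2.38% of 11796 genes. The difference was 3.24 in mean log2(TPM + 1) with a pooled SD of 0.79. Without the KO MK cells low in Pf4 the difference was 2.95. In NMK cells Hpgds was 0 to 188.5 TPM in KO (median 2.3) and 0 to 49.2 TPM in WT (median 15). Alox5ap, which presents the substrate to Alox5, had medians of 401.9 TPM in KO MK, 148.95 TPM in WT MK, 287.3 TPM in KO NMK and 290.7 TPM in WT NMK. Ltc4s, the leukotriene C4 synthase, had medians of 1.2 TPM in KO MK, 1.9 TPM in WT MK, 12.9 TPM in KO NMK and 15.2 TPM in WT NMK. Il13 was at 0.2 TPM or below in every cell, and Il4 was above 1 TPM in 1 KO MK and 1 KO NMK cell. Il13 and Il4 are named after their values were seen. Ccl4 averaged 77.2 ± 147.3 TPM in KO MK (SD, n = 5), 0.2 TPM in WT MK, 8.9 TPM in KO NMK and 26.2 TPM in WT NMK. Osm averaged 14.0 TPM in KO NMK and 0 TPM in WT NMK. Of 13 genes, 11 passed the filter in KO MK against KO NMK, with 4 higher and none lower, near the 34.2% and 3.84% of all genes. In WT MK against WT NMK 9 passed, with 2 higher and 3 lower (37.4% and 5.22% of all genes), and in KO MK against WT MK 11 passed, with 3 higher and none lower (12.4% and 9.27% of all genes). Without the KO MK cells low in Pf4, 10 passed against KO NMK, with 5 higher and 2 lower (38.8% and 6.26% of all genes), and 8 against WT MK, with 2 higher and 3 lower (16.1% and 9.58% of all genes).

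**Figure D4:**
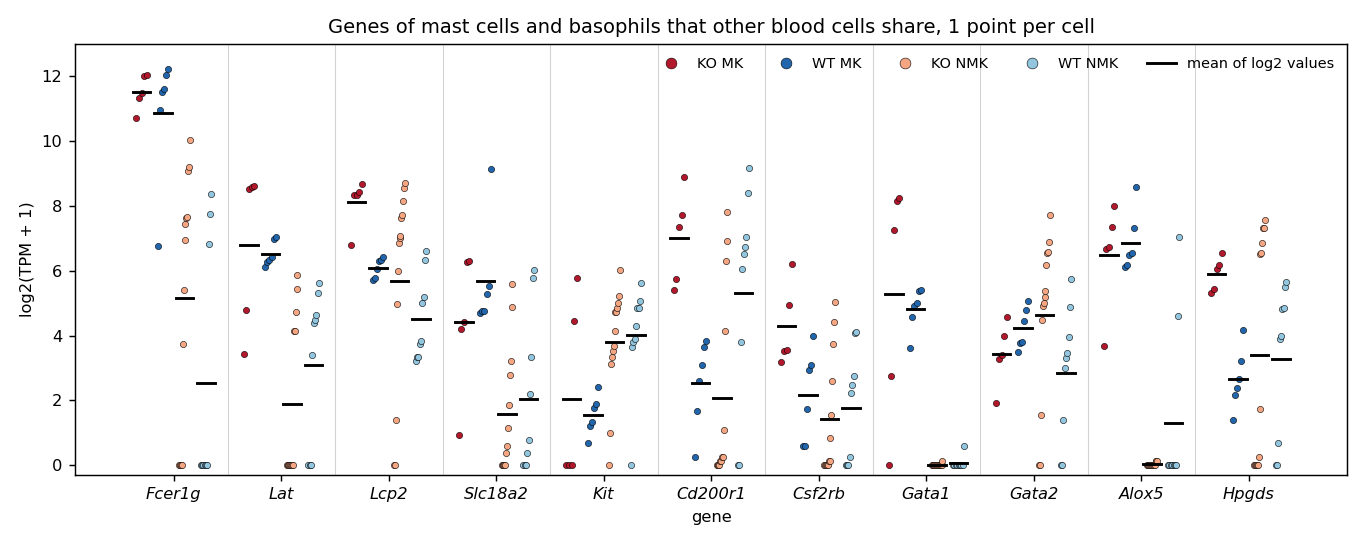
Level of 11 genes that mast cells and basophils share with other blood cells, as log2(TPM + 1), 1 point per cell, with the groups from left to right in the order KO MK, WT MK, KO NMK and WT NMK and black bars at the means of the log2 values. Gata1 and Alox5 are at or near 0 in KO NMK cells. Cd200r1 and Hpgds are higher in all KO MK cells than in all WT MK cells, a pattern found in 2.38% of 11796 genes.

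The genes whose pattern over the 33 libraries was most like that of a member were taken by Pearson's r of log2(TPM + 1). For Ms4a3 they were Tmem27 (r = 0.82), Plpp3 (0.74), Ctnnal1 (0.72), Ackr1 (0.71) and Spaca9 (0.70). Tmem27 averaged 6.1 TPM in KO MK and 11.3 TPM in WT MK, and was listed at 0 in all NMK cells. For Gzmb they were Mt2 (0.78), Pmaip1 (0.69), Ackr1 (0.69), P3h2 (0.65) and Cited4 (0.64). For Cpa3 they were Clec4e (0.71), Thap1 (0.58), Ccdc28a (0.56), Gpha2 (0.56) and Rogdi (0.55). Ackr1 stood in the lists of both Ms4a3 and Gzmb, at a mean of 1.9 TPM in KO MK and 21.8 TPM in WT MK, and was listed at 0 in all NMK cells. With most values at 0, these correlations rest on a few cells.

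In the table of 46 libraries, which includes the 13 left out by the authors, 3 of 9 KO MK, 7 of 11 WT MK, 0 of 16 KO NMK and 0 of 10 WT NMK cells had 1000 TPM or more of Pf4 and 1 TPM or more of any of the 8 genes. Of the 13 added libraries, 11 had a housekeeping score under 6. The difference of Ms4a3 was 2.96 for WT MK against WT NMK and -2.42 for KO MK against WT MK in that table.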

How the data were processed

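Single cultured cells were read with SMART-Seq kits (labels). Values were deposited as TPM per gene, with 1 decimal. One table has 46 libraries and the other, with outliers removed, 33. Values shared by both were identical. The submitters' processing notes list STAR 2.6.1e, featureCounts 1.6.2, cutadapt 1.9.1, FastQC 0.11.7 and the mm10 genome. Not given in the sources used here were the annotation, strand setting, step from counts to TPM and outlier rule. TPM keeps no depth, so depth is unknown, and a few abundant transcripts lower all other values of a library.

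Columns were matched to samples by description. Not analysed here were 44 of the 90 labelled samples, nor was 1 column of per-sample values used. The table of 33 libraries was the main one. Differences used a pseudocount of 1 TPM and a minimum group mean of 1 TPM, and understate changes of low genes. Alternatives were other pseudocounts, scalings, filters and tables, the title prefixes apart, and each cell left out. Leaving out KO MK libraries low in Pf4 was chosen after seeing the data, as was dropping those that scored under 6 on housekeeping genes from the full table.

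The 8 genes and 12 further lists were chosen with earlier results of these data known. From each list up to 4 genes were named per comparison, the most different ones that averaged at least 10 TPM, and some of these are given as examples. For each member that averaged at least 10 TPM, the 5 most alike genes were named, leaving out mitochondrial genes, ribosomal protein genes, pseudogenes and predicted genes. Promoter windows were from RefSeq, and all 8 genes matched 1. The computation was tested on simulated data. Tools were scipy 1.17.1, pandas 2.3.3, numpy 2.4.6 and matplotlib 3.10.9 under Python 3.11.15.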

Additional observations from a re-analysis of the deposited data

Results flagged for a closer look

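In groups of 4 to 10 cells, 11 values stood so far from the others of their group that Dixon's test at its 95% level picked them out. Its rate of about 1 in 20 groups by chance assumes normal data and does not apply here, since in a group otherwise at 0 any single value above 0 is picked out. That holds for 7 of the 11 values. They are Fcer1a at 0.1 TPM in KO MK 2 and at 1.2 TPM in WT MK 1, Ms4a2 at 0.7 TPM in KO MK B1-3, Hdc at 0.5 TPM in KO MK B1-3 and at 0.1 TPM in WT MK 2, Ms4a3 at 33.8 TPM in WT NMK 4A, and Cpa3 at 76.7 TPM in WT NMK 4B. The cell WT MK B1-1 stood out for 3 genes, with 2.3 TPM of Ms4a2, 73.8 TPM of Gzmb and 16.5 TPM of Cpa3. Ms4a3 was 104.9 TPM in KO MK 2, a library low in Pf4.

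Values of 1 TPM or more were also found in libraries that the authors left out. Ms4a3 was 6 TPM in WT MK B1-1a, Cpa3 was 13 TPM in KO NMK B1-1a, and Cpa3 was 1.5 TPM in KO MK B1-1.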

How the results depend on the processing

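The counts of members higher or lower kept within 1.5 times with values rescaled by median ratios, with ribosomal protein and mitochondrial genes taken out, with no filter, with a filter of 10 TPM, and on removal of libraries with a housekeeping score under 6. With a pseudocount of 10, the count higher in KO MK than KO NMK was 0, in WT MK than WT NMK 1, and lower in KO MK than WT MK 1. On the ratio of mean TPM, 1 was higher in KO MK than KO NMK, 1 lower in WT MK than WT NMK and 1 higher in KO NMK than WT NMK, and Cpa3 in KO MK against KO NMK turned to -0.90. With medians over cells, 1 was higher in KO MK than KO NMK and 1 higher in KO MK than WT MK. The full table gave 0 higher in KO MK than KO NMK, and 1 without its libraries of low housekeeping score. Leaving out KO MK libraries low in Pf4 gave 0. With the 5 alike WT MK libraries averaged, 4 were higher in WT MK than WT NMK and the co-expression count was 2 of 2. Libraries without a prefix gave 1 higher in KO MK than KO NMK, 1 higher in KO MK than WT MK, and co-expression in 1 KO MK cell. Those with B1 gave 4 lower in KO MK than WT MK, and co-expression in 1 KO MK and 1 WT MK cell.

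Leaving out each cell gave 0 to 2 members higher in KO MK than KO NMK (0 without KO MK 2, 1 without KO MK B1-4 or 1A), 2 to 3 higher in WT MK than WT NMK, and 0 to 1 higher in KO MK than WT MK. Co-expression was then found in 1 to 2 KO MK cells (1 without B1-3 or 1A) and in 5 of the WT MK cells left. With member thresholds of 10 and 100 TPM it was found in 0 KO MK cells, and at 100 TPM in 0 WT MK cells. With Pf4 at 1 TPM or more it was found in 4 KO MK, 3 KO NMK and 2 WT NMK cells, and with 100 TPM in 3 KO NMK and 2 WT NMK cells. The cause was not tested. No paired analysis was possible because the results come from no test and no label pairs the cells. Depth is unknown, so a value of 0 sets no limit.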
